A study of Mus musculus with 24 samples.

Results

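Long noncoding RNAs are transcripts that carry no recognised protein-coding frame. Some act on the expression of neighbouring genes, some act elsewhere in the nucleus or cytoplasm, and for many no role is known. Glucocorticoids such as dexamethasone (DEX) enter cells and bind the glucocorticoid receptor, a transcription factor that moves to the nucleus and raises or lowers the expression of its target genes, noncoding loci included. The 6 loci described here are Gm11827, 9330121J05Rik, Gm19439, Gm42891, 2900052N01Rik and Gm4876, of 14074 genes in the table of normalized counts. Their names are placeholders given to loci without an assigned function, and no role is claimed for any of them. In the files' annotation 5 of the 6 are lncRNAs, and Gm19439 is a TEC locus, a class for transcripts whose standing as a gene still awaits experiment.

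The 6 loci were chosen by earlier results of these same data: they had been seen to differ between DEX and saline, or between stressed and control mice. Their values in those comparisons are therefore a description and carry no p-value here. Where a locus is said to have been past the threshold of the fit across all genes in such a comparison, or to have lost or gained that call, this describes where its value lay and is not independent evidence of a difference. The rows came from mouse prefrontal cortex, a dissected block of secondary motor, cingulate, orbital, prelimbic and infralimbic cortex, taken from adult male C57BL/6 mice. Mice of the stressed groups went through 30 days of social defeat and were assigned by their behaviour to a passive coping (PS) or an active coping (AS) class. Control mice were not defeated and were housed singly for some days before the experiment. Stressed mice instead lived across a partition from an aggressive mouse and were injected a day after the final defeat session. A difference between stressed and control mice therefore includes this difference in housing. Each of the 3 phenotypes was split into mice injected with saline and mice injected with 2 mg/kg DEX, and tissue was taken 6 h later, which gave 6 groups of 4 mice with 1 poly(A) RNA library each. The injection is a stressor that every group shares, no mouse was left uninjected in the libraries used here, and a class of coping is a grouping by behaviour and not a treatment.

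The libraries held 21121869 to 59439645 reads on genes, with a median of 24420129.5. AS libraries were deeper (23481722 to 52422858) than control libraries (21121869 to 24753489). Fkbp5, a co-chaperone that restrains the glucocorticoid receptor, checked the DEX labels: it lay between 761 and 1088 normalized counts in the 12 saline libraries and between 2931 and 4198.5 in the 12 DEX libraries. Tsc22d3 (GILZ) and Sgk1, both induced by glucocorticoids, also separated saline from DEX libraries without overlap. Summed olfactory bulb markers stood apart in control saline mouse 117 (7050 normalized counts) and PS DEX mouse 34 (5716), against 369 to 2626 in the other libraries, and results that change without those 2 libraries are named where they occur. Of 6 choroid plexus markers, Ttr, Folr1, Kl and Clic6 had no rows, while Aqp1 and Kcnj13 had means of 42.2 and 57.7 normalized counts. A missing row does not show that the RNA was absent from the tissue.

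The loci lie on 4 chromosomes, and their positions are given in mm10 as the files give them. Gm11827 spans chr4:11122805-11126998 on the plus strand and has 1368 exonic bases. 9330121J05Rik spans chr3:62337524-62340532 on the minus strand as a single exon of 3009 bases, of which 2189 are also exonic in Arhgef26 on the plus strand. Gm19439 is a single exon of 2273 bases at chr3:88030878-88033150 on the plus strand. Gm42891 is the shortest, with 281 exonic bases in 2 exons at chr3:117255132-117255820 on the plus strand. 2900052N01Rik has 3235 exonic bases within chr9:46913493-46927366 on the plus strand, and Gm4876 has 3058 within chr6:17065010-17171833 on the minus strand, where 144 exonic bases are shared with Tes, a gene not analysed here. The paper describes the libraries as strand-specific, but whether the authors' counting used strand is not given in the sources used here. Without strand, reads in the shared stretches cannot be told apart, and 820 exonic bases of 9330121J05Rik lie outside Arhgef26's exons.

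The starts of the transcripts are shown because these loci have no name that tells a reader what they are. Each line gives the first 300 bases (for Gm42891 the whole 281-base transcript) of the transcript with the outermost start in GENCODE vM21, 5′ to 3′. The line for 2900052N01Rik gives instead its RefSeq promoter (GRCm38.p6), chr9:46913353-46913652, since of the 6 only it was found in the promoter table. That window holds the 250 bases before the start used for the RefSeq promoter and the 50 after. The start given above for this locus, chr9:46913493, is a different one and lies inside the window, so part of the window is transcript. Capitals mark matches to letters bound by the glucocorticoid receptor, ACANNNTGT or AGAACA, on either strand.
Gm11827: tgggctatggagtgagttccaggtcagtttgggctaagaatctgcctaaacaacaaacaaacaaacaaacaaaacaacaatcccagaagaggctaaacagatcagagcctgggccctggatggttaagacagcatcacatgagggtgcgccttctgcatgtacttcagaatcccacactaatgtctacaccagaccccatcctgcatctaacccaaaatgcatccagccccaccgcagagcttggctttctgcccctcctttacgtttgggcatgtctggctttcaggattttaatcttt
9330121J05Rik: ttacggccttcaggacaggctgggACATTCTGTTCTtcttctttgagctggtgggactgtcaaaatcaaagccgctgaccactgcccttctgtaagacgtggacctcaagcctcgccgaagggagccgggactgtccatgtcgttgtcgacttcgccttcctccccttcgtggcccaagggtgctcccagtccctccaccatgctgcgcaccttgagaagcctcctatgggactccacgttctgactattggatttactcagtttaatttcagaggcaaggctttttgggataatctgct
Gm19439: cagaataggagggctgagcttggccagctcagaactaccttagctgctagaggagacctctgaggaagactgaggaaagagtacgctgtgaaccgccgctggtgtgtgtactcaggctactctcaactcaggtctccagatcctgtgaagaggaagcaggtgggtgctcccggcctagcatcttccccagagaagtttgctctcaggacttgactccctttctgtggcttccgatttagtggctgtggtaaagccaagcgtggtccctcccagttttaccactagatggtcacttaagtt
Gm42891: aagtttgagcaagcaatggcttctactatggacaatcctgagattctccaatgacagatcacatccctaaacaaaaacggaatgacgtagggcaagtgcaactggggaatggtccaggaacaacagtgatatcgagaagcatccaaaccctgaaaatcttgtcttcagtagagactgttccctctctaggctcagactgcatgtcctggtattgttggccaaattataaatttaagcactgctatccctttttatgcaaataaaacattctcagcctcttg
2900052N01Rik promoter: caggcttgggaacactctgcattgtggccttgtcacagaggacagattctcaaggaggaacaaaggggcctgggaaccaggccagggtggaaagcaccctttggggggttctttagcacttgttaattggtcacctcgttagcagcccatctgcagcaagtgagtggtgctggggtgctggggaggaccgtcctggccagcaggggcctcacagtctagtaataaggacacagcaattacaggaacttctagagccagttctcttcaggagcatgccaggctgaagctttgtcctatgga
Gm4876: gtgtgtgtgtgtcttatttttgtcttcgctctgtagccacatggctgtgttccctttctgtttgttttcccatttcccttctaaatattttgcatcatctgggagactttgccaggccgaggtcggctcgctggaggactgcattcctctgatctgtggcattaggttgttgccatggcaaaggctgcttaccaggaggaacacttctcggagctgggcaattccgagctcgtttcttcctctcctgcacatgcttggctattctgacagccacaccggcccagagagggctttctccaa
Only 9330121J05Rik held a match in these windows. It had ACANNNTGT at bases 25 to 33 of the transcript and, overlapping it, AGAACA on the opposite strand at bases 31 to 36, together at chr3:62340497-62340508. Among 32056 starts of noncoding transcripts of the same length, 7.9% held ACANNNTGT and 22.8% held AGAACA, and among 32851 RefSeq promoters the shares were 6.85% and 19%. A match of letters is a description of the sequence and not a binding site, and windows without a match say only that those letters are absent there.

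In control mice 4 of the loci, Gm11827, 9330121J05Rik, Gm19439 and Gm42891, stood several-fold higher after DEX, and 3 of them did so in all phenotypes. Gm11827 had 1.35, 3.69, 5.66 and 3.52 normalized counts in the 4 control saline libraries and 74.4, 56.6, 38.1 and 49.96 in the 4 control DEX libraries. In PS mice it had 3.82, 0.936, 3.84 and 5.26 after saline and 36.7, 38.8, 30.4 and 53.3 after DEX. In AS mice it had 4.72, 3.73, 11.6 and 6.996 after saline and 39.3, 41.7, 33.0 and 50.7 after DEX. Every DEX library lay above every saline library, whatever the phenotype. The fitted log2 fold change of (normalized count + 1) was 3.67 ± 0.36 (SE) in control, 3.29 ± 0.36 in PS and 2.53 ± 0.36 in AS mice, so that the AS value was the smallest and its saline mean the largest. The saline values rest on 1 to 17 reads per library, and the control fold change ran from 2.42 with a pseudocount of 8 to 4.34 with edgeR on thinned reads. Over the same settings the PS value ran from 2.05 to 3.76 and the AS value from 1.75 to 2.61.

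9330121J05Rik, the antisense partner of Arhgef26, was close to evenly higher in the 3 phenotypes. Control mice had 13.5, 14.8, 16.97 and 19.96 normalized counts after saline and 175, 158, 138 and 141 after DEX. PS mice had 14.0, 22.9, 19.2 and 9.46 after saline and 124, 159, 106 and 140 after DEX. AS mice had 20.1, 20.9, 12.9 and 14.9 after saline and 123, 138, 116 and 169 after DEX. The lowest of the 12 DEX libraries (106) stood far above the highest of the 12 saline libraries (22.9). The log2 fold changes were 3.16, 2.99 and 2.93 in control, PS and AS mice, each ± 0.21 (SE), and no left-out library moved any of them outside 2.77 to 3.26.

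Gm19439, the TEC locus between Hapln2 and Gpatch4, had the highest DEX level in PS mice. Control mice had 41.8, 27.1, 54.3 and 36.4 normalized counts after saline and 204, 228, 199 and 164 after DEX. PS mice had 36.9, 35.1, 44.8 and 37.8 after saline and 241, 238, 232 and 218 after DEX, and AS mice had 24.8, 29.8, 45.6 and 63.0 after saline and 172, 203, 203 and 160 after DEX. The log2 fold changes were 2.32 ± 0.21 (SE) in control, 2.56 ± 0.21 in PS and 2.23 ± 0.21 in AS mice. Under DEX the 4 PS libraries lay above the 4 AS libraries without overlap, with means of 232 ± 10.4 and 185 ± 22.0 (SD, n = 4 each). That comparison between the coping classes was not among those that chose the loci, though its libraries were. Its log2 difference, AS against PS, was -0.34 ± 0.21 (SE) and did not pass (limma with Benjamini-Hochberg adjustment over all 14074 genes, adjusted p = 0.9998).

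Gm42891 was barely counted, with 0 to 11 reads per library. The control saline libraries had 0, 1, 0 and 1 reads and the control DEX libraries 9, 9, 9 and 4. PS mice had 1, 5, 4 and 1 reads after saline and 3, 5, 5 and 7 after DEX, and AS mice had 1, 3, 7 and 0 after saline and 11, 8, 8 and 3 after DEX. The groups were apart only in control mice, where 31 reads stood against 2, a depth-corrected ratio of 15.5 with an exact 95% counting interval of 3.94 to 133. In PS mice the ratio was 2.28 (interval 1.04 to 5.26) and in AS mice 2.40 (1.17 to 5.31), with overlapping libraries in both. The AS value passed the threshold only without AS saline mouse 40 (1.69 on the log2 scale). These intervals pool the reads of the 4 mice in each group and cover counting error only, not the spread between mice. DEX comparisons chose this locus, so an interval above 1 is not evidence of a rise. The fitted control value, 2.75 ± 0.49 (SE) on the log2 scale, ran from 1.01 to 3.96 over the settings tried.

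**Figure D1:**
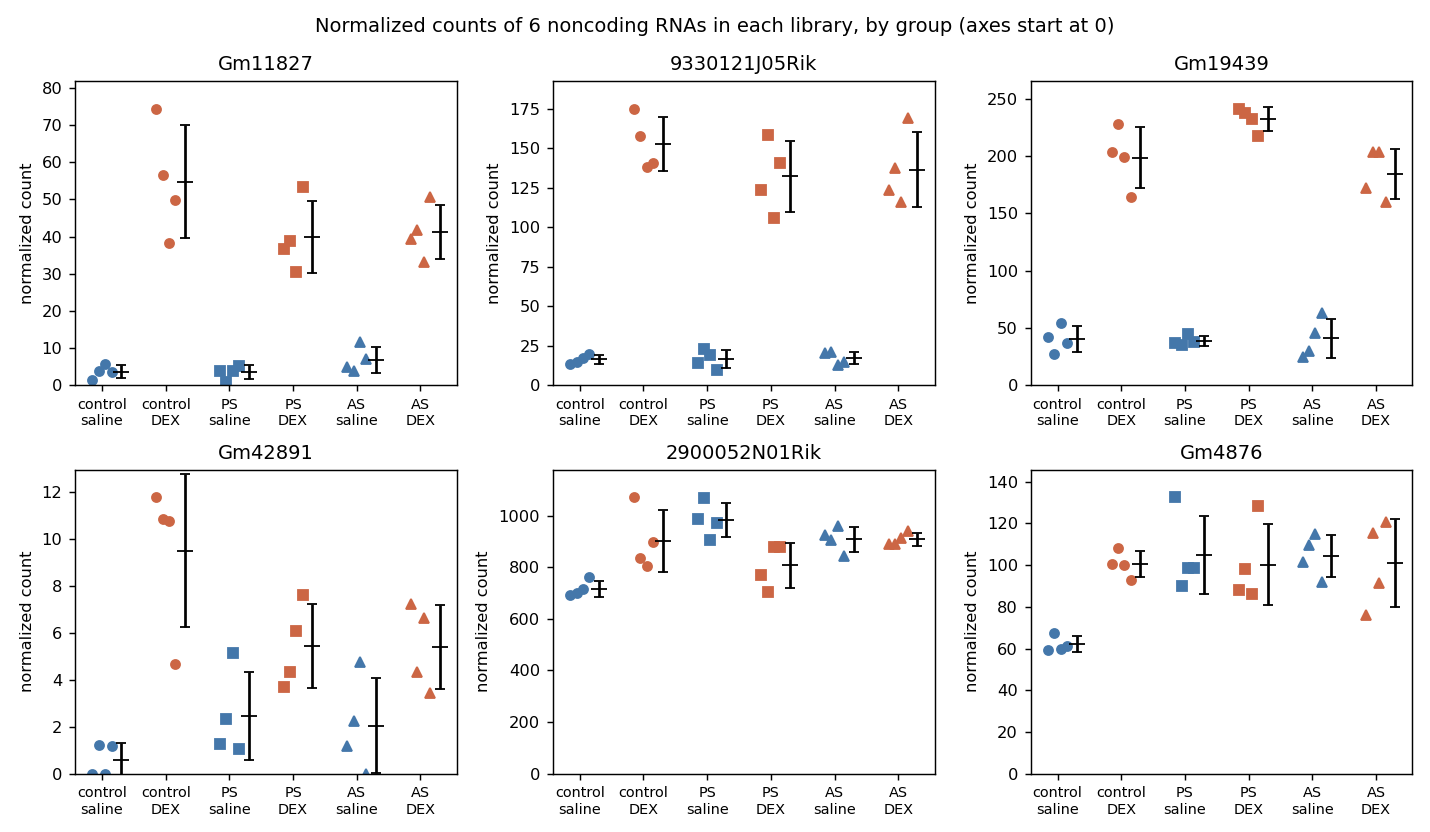
Normalized count (y, linear axes from 0) of each of the 6 loci in every library (points), by group (x), with the mean and SD of 4 mice beside them in black. Saline is blue and DEX orange, and circles, squares and triangles are control, PS and AS mice. Gm11827, 9330121J05Rik and Gm19439 separate DEX from saline in every phenotype, while 2900052N01Rik and Gm4876 have their lowest mean, 717 and 62.0, in control saline mice.

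Counted together, all 6 loci were past the threshold (adjusted p under 0.1) and higher with DEX in control mice, where 6.49% of all genes were past it and 4.03% were higher. In PS mice 4 of 6 passed, 3 higher and 1 lower, against 5.36% of all genes in either direction and 2.74% higher. In AS mice 3 of 6 passed, all higher, against 8.77% of all genes and 3.82% higher. These contrasts chose the loci, so nothing is read from the counts. The median log2 fold change of the 6 was 2.54, 1.78 and 1.77 in control, PS and AS mice, and that of all genes was -0.0088, -0.0026 and 0.0024.

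The table held 1047 lncRNA and TEC rows, the 6 loci included. In control mice 47 rows passed (4.49%), 35 of them higher. In PS mice 39 passed, 13 higher, and in AS mice 41 passed, 22 higher. Ordered by fitted log2 fold change among those 1047 rows, Gm11827 ranked 1, 1 and 2 in control, PS and AS mice, 9330121J05Rik ranked 2, 2 and 1, and Gm19439 ranked 4, 3 and 3. Gm42891 ranked 3, 11 and 6, on 2 reads in the control saline group. These ranks hold for a pseudocount of 1: with a pseudocount of 8 Gm11827 stood at 2.42 and 2.05 in control and PS mice, below 9330121J05Rik at 2.73 and 2.54. Of 25 well-known brain noncoding RNAs, a list drawn up with earlier results of these data known, 21 had rows. Of these 0 passed in any DEX comparison by limma, edgeR or DESeq2, with 1, 1 and 0 at an unadjusted limma p under 0.05 in control, PS and AS mice. Among all lncRNA and TEC rows 4.49%, 3.72% and 3.92% passed in control, PS and AS mice. A count of 0 of 21 is near those shares, and nothing is read from it. The most abundant of the 21, the imprinted Meg3, had log2 fold changes of 0.026, 0.038 and -0.015 in control, PS and AS mice (SE 0.15 each, limma adjusted p of 0.969, 0.961 and 0.976). Snhg11, a small nucleolar RNA host gene, and 2900097C17Rik, the next in abundance, lay between -0.058 and 0.090.

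**Figure D2:**
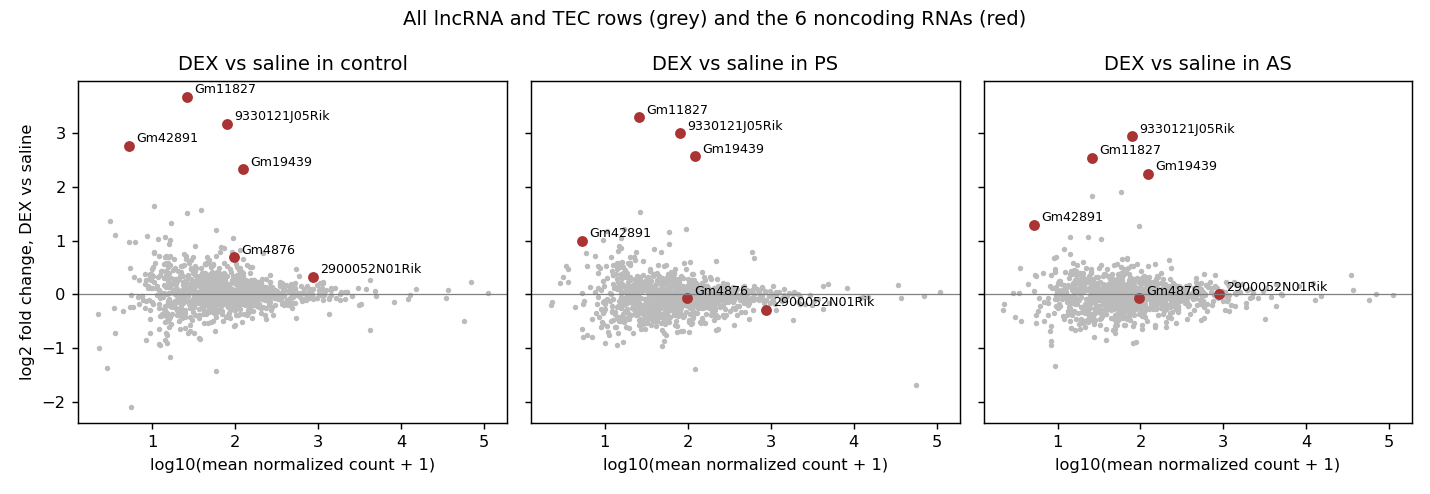
Fitted log2 fold change, DEX against saline (y), of all 1047 lncRNA and TEC rows (grey) and of the 6 loci (red), against the log10 of the mean normalized count + 1 (x), in control, PS and AS mice. Gm11827, 9330121J05Rik and Gm19439 lie above 2 in every panel, and Gm42891 lies at 2.75 in control mice and at 1.30 in AS mice.

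Levels per length allow the loci to be set against each other. As RPKM computed from the recovered reads (reads scaled to exonic length and to the library's reads on genes), 2900052N01Rik was the most abundant, with 7.96 ± 0.51 (SD, n = 4) in control saline mice. Gm4876 had 0.728 ± 0.050, Gm19439 0.629 ± 0.18, 9330121J05Rik 0.195 ± 0.038, Gm11827 0.0935 ± 0.046 and Gm42891 0.0778 ± 0.090 in the same group. The length used for 9330121J05Rik includes the 2189 bases shared with Arhgef26, so its RPKM depends on whether the counting used strand. After DEX in control mice Gm19439 stood at 3.12 ± 0.40, 9330121J05Rik at 1.81 ± 0.21 and Gm11827 at 1.43 ± 0.40 on this scale. Gm4876, above all 3 after saline, then stood at 1.17 ± 0.069, within the spread of Gm11827 and below the other two.

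After saline, Gm11827, 9330121J05Rik and Gm19439 overlapped between stressed and control mice. PS against control differed by -0.058 ± 0.36, -0.045 ± 0.21 and -0.0075 ± 0.21 (log2 ± SE) for Gm11827, 9330121J05Rik and Gm19439. AS against control differed by 0.76 ± 0.36, 0.061 ± 0.21 and -0.017 ± 0.21. Under DEX, Gm11827 gave -0.44 ± 0.36 in PS and -0.38 ± 0.36 in AS against control, again with overlapping libraries.

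Gm4876 and 2900052N01Rik made up a different pattern, with control saline mice lowest of the 6 groups. Gm4876 had 59.4, 67.6, 60.0 and 61.0 normalized counts in control saline mice, and no other library fell below 76.1. After DEX control mice had 101, 108, 100.1 and 92.9. PS saline mice had 133, 89.8, 98.5 and 98.8, and AS saline mice had 102, 110, 115 and 91.8. Under DEX the PS mice had 88.2, 98.2, 86.2 and 128, and the AS mice had 76.1, 115, 91.6 and 121. The other 5 group means lay between 100.3 and 105, and neighbours in that order overlapped.

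The 3 higher groups of the Gm4876 comparisons therefore shared a single reference. DEX against saline in control mice gave a log2 fold change of 0.69 ± 0.15 (SE), PS against control after saline gave 0.74 ± 0.15 and AS against control gave 0.74 ± 0.15. All use the same 4 control saline libraries. With any 1 library left out the values ran from 0.65 to 0.73 for DEX, 0.62 to 0.80 for PS and 0.69 to 0.80 for AS. Within the stressed mice DEX gave -0.067 ± 0.15 in both classes, with overlapping libraries.

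2900052N01Rik, an intergenic locus, was the best counted, with 512 to 2283 reads per library. Control mice had 691, 701, 714 and 761 normalized counts after saline and 1071, 835, 803 and 897 after DEX. PS mice had 987, 1068, 906 and 973 after saline and 771, 702, 880 and 879 after DEX. AS mice had 926, 904, 960 and 845 after saline and 889, 888, 914 and 942 after DEX. DEX libraries were above saline libraries in control mice, below them in PS mice and among them in AS mice.

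The log2 fold change of 2900052N01Rik with DEX was 0.32 ± 0.082 (SE) in control, -0.29 ± 0.082 in PS and 0.00077 ± 0.082 in AS mice. After saline it was 0.45 ± 0.082 in PS and 0.34 ± 0.082 in AS against control, without overlap in either. The decrease with DEX and the increase with stress in PS mice share the 4 PS saline libraries, whose mean of 984 ± 66.7 (SD, n = 4) was the highest of the 6 groups. The decrease in PS mice was small: it did not pass the threshold without PS saline mouse 2 or 28, without PS DEX mouse 6 or 34, in a fit of the PS groups alone, or without the libraries high in olfactory bulb markers (-0.22). The control increase did not pass without control DEX mouse 101 (0.24). The AS increase after saline passed with DESeq2 and without control DEX mouse 101 or PS DEX mouse 34. Under DEX the AS libraries lay above the PS libraries without overlap (0.17 ± 0.082), but the difference did not pass (limma adjusted p = 0.9998).

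After saline, 2 of the 6 loci were past the threshold and higher in PS than in control mice, 2900052N01Rik and Gm4876, where 1.51% of all genes passed and 0.718% were higher. In AS mice 1 of 6 passed, Gm4876, where 0.156% passed and 0.0497% were higher. Of the 1047 lncRNA and TEC rows, 11 passed in PS mice, 2900052N01Rik and Gm4876 among them, and 1 in AS mice, Gm4876 itself. The Gm4876 call in PS mice was lost without PS saline mouse 2 (0.62). Its call in AS mice was lost without control saline mouse 106, 109 or 117, without AS saline mouse 8, 14 or 40, and without the libraries high in olfactory bulb markers, although its log2 value then stayed between 0.69 and 0.75.

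In the other comparisons no locus was past the threshold by limma, and DESeq2 had 1 past it in the difference of DEX responses between PS and control mice and 1 between AS and control mice. Under DEX 0.199% of all genes passed for PS against control and 0.867% for AS against control by limma (28 and 122 genes, against 225 and 417 by DESeq2). For AS against PS, 0% of genes passed after saline and 0% under DEX, although 671 and 580 genes had an unadjusted p under 0.05 in limma, and DESeq2 called 11 and 4 genes and edgeR 0 and 0. Differences between the DEX responses of PS and control mice passed for 0% of genes (1404 at an unadjusted limma p under 0.05, 0 called by edgeR and 23 by DESeq2), of AS and control mice for 0.348% (49 genes by limma, 77 by edgeR and 439 by DESeq2), and of AS and PS mice for 0% (344 at an unadjusted limma p under 0.05, 0 called by edgeR or DESeq2). Since these differences are built from the contrasts that chose the loci, their values, like the calls on the loci above, are a description with no p-value: for 2900052N01Rik, -0.61 ± 0.12 (log2 ± SE) in PS and -0.32 ± 0.12 in AS against control, and for Gm4876 -0.76 ± 0.21 in both.

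**Figure D3:**
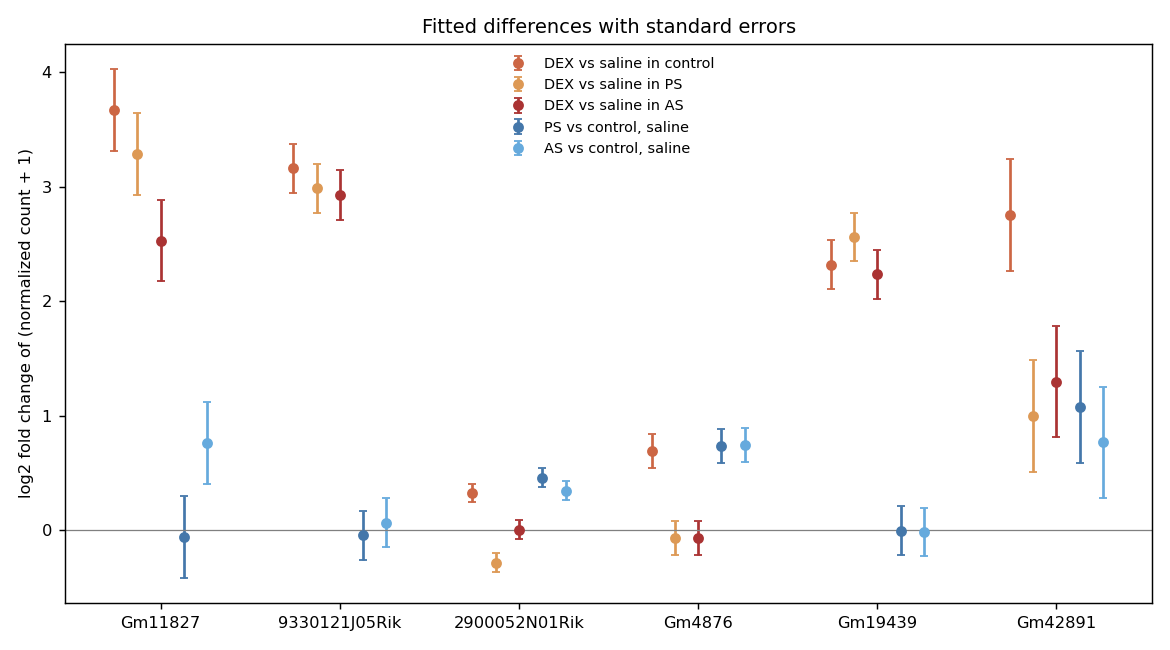
Fitted log2 fold change of (normalized count + 1) with its standard error (y) for each of the 6 loci (x) in 5 comparisons (colours). DEX comparisons in orange and red lie between 2.23 and 3.67 for Gm11827, 9330121J05Rik and Gm19439, and the stress comparisons in blue lie between 0.34 and 0.74 for 2900052N01Rik and Gm4876.

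Neighbouring genes were examined because noncoding loci often share regulation or transcripts with the genes beside them. The 6 loci had 13 other rows within 100 kb. With DEX 1 of the 13 passed in control mice (higher), against 6.49% of all genes, 3 in PS mice (2 higher and 1 lower), against 5.36%, and 6 in AS mice (2 higher and 4 lower), against 8.77%. After saline 0 passed for either stressed class against control by limma, edgeR or DESeq2 (3 in PS and 3 in AS mice had an unadjusted limma p under 0.05). Genes neighbouring the loci were not used to choose them, and their adjusted p-values are those of limma with Benjamini-Hochberg adjustment over all 14074 genes.

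Trp53inp1, a p53-inducible gene that acts in autophagy and cell death, starts 33.6 kb downstream of the Gm11827 start on the same strand. It was the only gene within 100 kb of any of the loci that rose with DEX in all 3 phenotypes. Its normalized counts were 216 to 318 after saline and 461 to 599 after DEX in control mice, 249 to 369.5 and 391 to 469.8 in PS mice, and 268 to 290.0 and 296 to 494 in AS mice, without overlap in any. The log2 fold changes were 0.93 ± 0.15 (SE, limma adjusted p = 0.00039) in control, 0.56 ± 0.15 (adjusted p = 0.039) in PS and 0.46 ± 0.15 (adjusted p = 0.079) in AS mice. The AS call did not hold in a fit of the AS groups alone (adjusted p = 0.19), with edgeR on thinned reads (0.107), nor without any 1 of the AS saline mice 8, 14, 40 and 44 or AS DEX mice 42 and 72 (0.34 to 0.48), and the PS call did not hold without PS saline mouse 28 or 68 or PS DEX mouse 52 (0.49 to 0.51). On the other side of Gm11827, Ndufaf6, an assembly factor of mitochondrial complex I, did not pass (0.26 ± 0.13 in control mice, adjusted p = 0.31), except without control saline mouse 117 (0.41, adjusted p = 0.037), where it also passed for PS against control after saline (0.43, adjusted p = 0.089).

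Arhgef26 overlaps 9330121J05Rik on the opposite strand. It fell by 0.45 on the log2 scale in PS mice (SE 0.12, limma adjusted p = 0.030) and by 0.45 in AS mice (SE 0.12, adjusted p = 0.022), while control mice gave -0.041 ± 0.12 (adjusted p = 0.93). Its counts in PS mice were 628 to 670.2 after saline and 383 to 527 after DEX, without overlap. In AS mice they were 540.5 to 755.6 and 390.5 to 588.4, and in control mice 554 to 680.3 and 509 to 659.5, with overlap in both. The antisense RNA was higher in all 3. The PS call on Arhgef26 did not hold without PS DEX mouse 34 (-0.35), 1 of the libraries high in olfactory bulb markers, and the AS call did not hold without AS saline mouse 40 or in a fit of the AS groups alone (adjusted p = 0.11). The next rows, Dhx36 at 127.5 kb and Rap2b at 969.1 kb, did not pass with DEX.

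**Figure D4:**
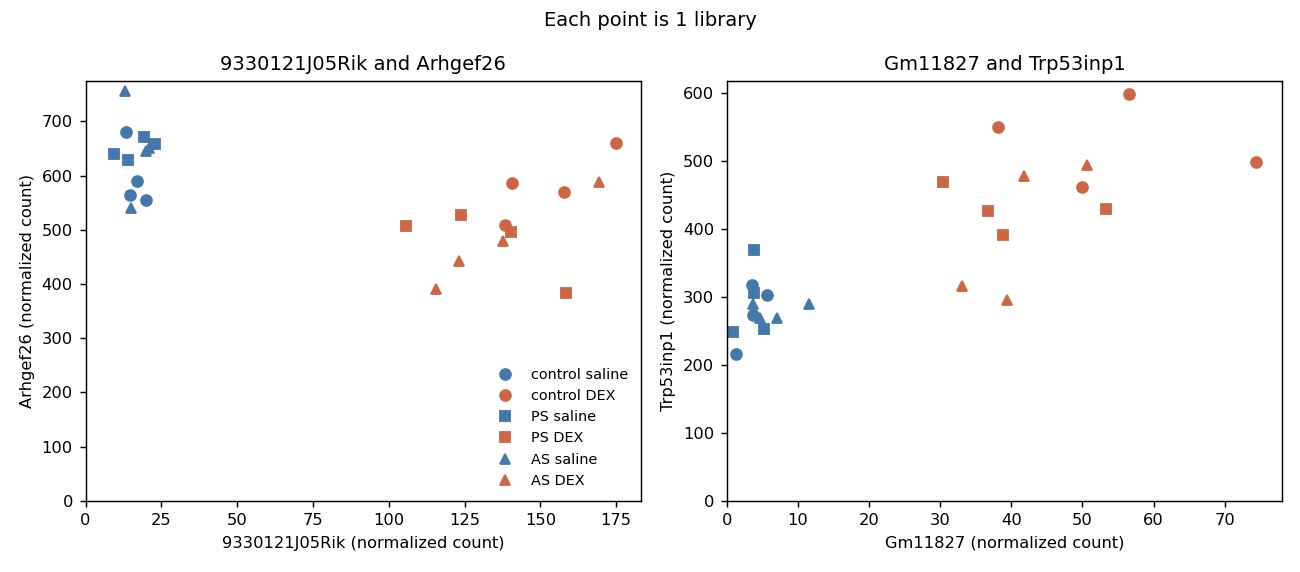
Normalized counts of Arhgef26 against 9330121J05Rik (left) and of Trp53inp1 against Gm11827 (right), 1 point per library, both axes linear from 0, colours and shapes by group. Along the x axes DEX (orange) and saline (blue) libraries are apart, and on the y axes Trp53inp1 reaches 599 with DEX while Arhgef26 is spread from 383 to 659.5 with DEX and from 540.5 to 756 with saline.

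Gm19439 had 7 rows within 100 kb. Hapln2, 3.3 kb away, encodes a link protein of the matrix around nodes of Ranvier and is made by oligodendrocytes. It rose with DEX in PS mice (0.89 ± 0.22, limma adjusted p = 0.018) and AS mice (1.01 ± 0.22, adjusted p = 0.0056) and gave -0.025 ± 0.22 in control mice (adjusted p = 0.98), whereas Gm19439 was higher in all 3. Of the oligodendrocyte markers (8 of 8 in the table), 2 passed as higher with DEX in AS mice and 0 passed in PS mice. In control mice 2 passed as lower. Summed counts of the markers in AS mice were 20136 to 34348 after saline and 32147 to 47265 after DEX. They were 24890 to 36032 and 31598 to 40606 in PS mice, and 30646 to 48347 and 26667 to 38182 in control mice, with overlap in all 3. Their part in the Hapln2 result was not tested. Bcan (brevican), Nes (nestin) and Crabp2 (a retinoic acid-binding protein), all within 100 kb, fell in AS mice by 0.28, 0.49 and 0.91 (limma adjusted p of 0.063, 0.091 and 0.043), genes named after their values were seen. Gpatch4, 9957 bases away on the other side, did not pass in any.

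**Figure D5:**
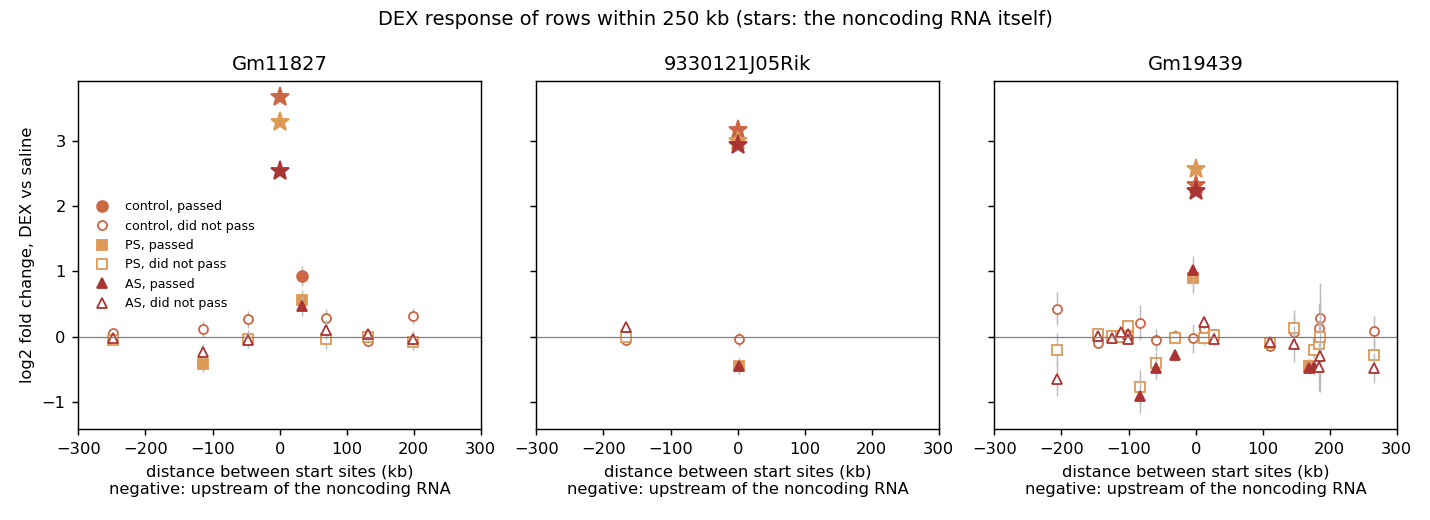
Log2 fold change with SE, DEX against saline (y), of every row within 250 kb of Gm11827, 9330121J05Rik and Gm19439, against the distance between start sites in kb (x, negative is upstream of the noncoding locus). Stars mark the noncoding loci, filled symbols rows past the threshold and open symbols the rest, with circles, squares and triangles for control, PS and AS mice. Trp53inp1 is the filled group at 33.6 kb in the Gm11827 panel and Hapln2 the filled pair at -3.3 kb in the Gm19439 panel.

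Of the remaining loci, only Gm42891 had a row within 100 kb, Plppr4. Cav2, which encodes a caveolin of membrane invaginations, lies 109.4 kb from Gm4876 and was higher in PS than in control mice after saline (0.36 ± 0.090, limma adjusted p = 0.064). That call was lost with library size as a covariate (adjusted p = 0.10) and without any 1 of control saline mice 106, 107 and 117 (the last high in olfactory bulb markers) and PS saline mice 2 and 28. With DEX in PS mice Cav2 did not pass in the main fit. It passed as lower with DESeq2 (-0.27, DESeq2 adjusted p = 0.075), and in limma with quantile normalization (adjusted p = 0.099) or the filter on the mean (0.098). It also passed in limma without PS saline mouse 68 (-0.31, adjusted p = 0.098) or PS DEX mouse 52 (-0.37, adjusted p = 0.014). The nearest row on the other side of Gm4876, the lncRNA 1110019D14Rik, was 3020.6 kb away. The nearest rows to 2900052N01Rik were the cell adhesion gene Cadm1 at 602.8 kb and the splicing factor Bud13 at 614.4 kb, and to Gm42891 the neuronal membrane gene Plppr4 at 63.3 kb and Palmd at 286.1 kb. None of these 5 passed with DEX or after saline with stress, except that Plppr4 passed with DEX in AS mice without AS DEX mouse 60 (0.20, adjusted p = 0.024).

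The genes whose levels followed each locus most closely over the 24 libraries were named as a description, since the libraries share groups, depth and composition. For Gm11827 they were Cmtm3 (Pearson r = 0.961), Fkbp5 (0.961) and Pkp2, a desmosomal plakophilin (0.960). For 9330121J05Rik they were Fkbp5 (0.980), Hacd2, an enzyme of very-long-chain fatty acid synthesis (0.968), and Wipf3 (0.966). For Gm19439 they were Plin4, a coat protein of lipid droplets (0.977), Fkbp5 (0.975) and Tsc22d3 (0.971). Fkbp5 thus stood among the closest 3 genes for each of these loci, on a scale on which DEX and saline groups are far apart. Gm42891 followed Ms4a6c (0.844), the phospholipase Pla2g3 (0.809) and the TEC locus Gm42783 (0.802) less closely.

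For the other loci the closest genes were less alike. 2900052N01Rik went with 3110082I17Rik (0.824), Acadsb, a mitochondrial acyl-CoA dehydrogenase (0.773), and the kinase Pim1 (0.758). Gm4876 went with Acadsb (0.765), the interneuron peptide Vip (0.731) and the calcium buffer Calb1 (0.717). 3110082I17Rik had 274 ± 21.8 normalized counts (SD, n = 4) in control saline, 346 ± 47.4 in control DEX, 360 ± 10.1 in PS saline and 308 ± 9.37 in PS DEX mice, an order like that of 2900052N01Rik.

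After group means were subtracted, the 2 closest genes were others for all 6 loci. They were Hif3a (0.826) and Pxk (0.804) for Gm11827, the pseudogene Gm15536 (0.777) and Sema3f (0.740) for 9330121J05Rik, and Ciao1 (0.780) and Mia2 (0.762) for Gm19439. For 2900052N01Rik they were Swap70 (0.826) and the microglial receptor P2ry13 (0.792), for Gm4876 Lyve1 (0.822) and Mfsd1 (0.781), and for Gm42891 Morn1 (0.717) and H2-Q6 (0.670). These r values were picked as the highest over all genes and no chance level was computed, so they too are a description. Between the loci themselves, Gm11827, 9330121J05Rik and Gm19439 had r of 0.925 to 0.944 over all libraries and of -0.257 to 0.311 within groups. 2900052N01Rik and Gm4876 had 0.631 over all libraries and 0.132 within groups.

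Microglial markers (8 of 8 in the table) were compared with 2900052N01Rik because P2ry13 is one of the genes that followed it within groups. Their summed counts in PS mice were 10669 to 11357 after saline and 9404 to 10299 after DEX, in control mice 9660 to 10915 and 9598 to 12432, and in AS mice 11476 to 12219 and 9332 to 11120. They were lower with DEX without overlap in PS mice, where 2900052N01Rik was lower too, and in AS mice, where it was level. Their part in the 2900052N01Rik values was not tested. In these bulk samples fewer cells of a type and less RNA per cell cannot be told apart. Endothelial markers passed as lower with DEX in AS mice for 4 of 8 genes, in PS mice for 1 and in control mice for 0, and their part in the values of the loci was not tested.

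For comparison, 24 known targets of the glucocorticoid receptor, all in the table, were listed. The list was drawn up with earlier results of these data known, so its counts are a description and not an independent benchmark. With DEX 17 were higher and 1 lower in control mice, 19 higher and 1 lower in PS mice, and 16 higher and 0 lower in AS mice. Of all genes 4.03%, 2.74% and 3.82% were higher in control, PS and AS mice. Their median log2 fold changes were 0.67, 0.76 and 0.67. The gene that was lower, named for that, was Nr3c1, which encodes the receptor (-0.50 ± 0.10 in control mice, limma adjusted p = 0.0027). Klf9, a transcription factor and the most abundant of the list, rose by 0.42, 0.55 and 0.66 in control, PS and AS mice, and Mt1, a metallothionein, by 0.69, 0.55 and 0.58 (limma adjusted p of 0.018 or less for each). Per1, a clock gene, passed in PS mice only among these 3 contrasts (0.30 ± 0.083, adjusted p = 0.040). Fkbp5 rose by 2.26, 2.00 and 1.91, Tsc22d3 by 1.11 and 1.08 in PS and AS mice and by a like amount in control mice, and Sgk1 by 0.67, 0.79 and 0.81 (limma adjusted p of 0.00018 or less for each). After saline 0 of the 24 passed for PS or AS against control by limma, edgeR or DESeq2 (5 and 2 at an unadjusted limma p under 0.05).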

How the data were processed

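Bulk RNA of prefrontal cortex was sequenced as paired-end poly(A) libraries, 4 mice in each of 6 groups. The authors trimmed reads with fastp 0.20.1, aligned them to mm10 with HISAT2 2.2.1, counted them on genes with featureCounts (Subread 2.0) and GENCODE vM22, and deposited counts divided by the size factors of DESeq2 1.36.0, a signal with no length correction. A deposited table of the authors' comparisons gave positions and lengths; its fold changes and p-values were not used.

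Dividing by the smallest step in each library gave whole reads for 100% of values (tolerance 0.01). Log2(normalized count + 1) of all 24 libraries and 14074 genes was fitted with limma 3.58.1 (trended eBayes), p-values were adjusted by Benjamini-Hochberg, and adjusted p under 0.1 passed. edgeR 4.0.16 and DESeq2 1.42.0 on the recovered reads, another pseudocount (8), filters (mean of 100 normalized counts, 10 reads in each library), quantile normalization, a library size covariate, thinned reads and left-out libraries were alternatives. Of the 6 loci, 3 had at least 10 reads in each library and 2 a mean of at least 100. The code was tested on simulated data. The loci and gene lists were chosen with earlier results of these data known. Genes named beside the loci are overlapping and nearest rows, the 3 and 2 most correlated genes before and after subtracting group means, Fkbp5, Tsc22d3 and Sgk1, and the 3 most abundant genes of each list. Marker lists covered 13 tissues and cell types. GENCODE vM21 gave exons and transcript sequences; 99.01% of rows had identical coordinates there. The labels do not say that replicates came from separate cages or batches, so errors measure the spread between mice only. Exact permutation tests were run on the loci for AS against PS only. The lowest p such a test can give for 4 against 4 is 0.0286, so no result rests on them. Under DEX, Gm19439 and 2900052N01Rik both had that lowest value, before any adjustment.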

Additional observations from a re-analysis of the deposited data

Results flagged for a closer look

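The response of 2900052N01Rik to DEX ran in opposite directions in control and PS mice: every DEX library lay above every saline library in control mice and below every one in PS mice. The fitted difference between the responses was -0.61 on the log2 scale. No p-value is given for it, since both responses were among those by which the locus was chosen. The fit by limma did not place it past the threshold, and DESeq2, a pseudocount of 8 and quantile normalization did. For this difference limma placed 0 and DESeq2 23 of all genes past the threshold. The share of all genes whose libraries separate in this way is not given, so the pattern is described and not called unusual.

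Gm42891 in control DEX mouse 122 had 4.65 normalized counts, far below the other 3 libraries of its group (10.7 to 11.8). Those values stand on 4 reads against 9 in each of the others. Of 36 groups of 4 libraries examined in this way, 1 stood out, where chance gives about 1.8.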

How the results depend on the processing

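No paired analysis was possible because mouse numbers do not recur across groups. Of 12 comparisons of the 6 loci, the number that passed changed by over 1.5 times in 7 under some setting. A mean of 100 normalized counts left 2 loci to test, of which 2, 2, 1, 1 and 0 passed (DEX in control, PS and AS mice, then PS and AS against control after saline), and 10 reads in each library left 3, of which 3, 2 and 1 passed with DEX. DESeq2 called 2 loci for AS against control and 1 each for the differences of DEX response of PS and AS from control, and a pseudocount of 8 and quantile normalization called 1 each for PS. Over all genes DESeq2 called 431 and 99 for PS and AS against control after saline, against 213 and 22 by limma, and 225 and 417 under DEX, against 28 and 122. For the differences of DEX response of PS and AS from control it called 23 and 439, edgeR 0 and 77, and limma 0 and 49. With the libraries high in olfactory bulb markers left out, a choice made after seeing the data, 0 loci passed for AS against control after saline, and 2 neighbours with DEX in control mice and 1 neighbour for PS against control passed. Neighbours within 250 kb numbered 2, 5 and 9 with DEX and 1 for PS against control, since more rows were counted, and a fit of the AS groups alone called 2. With each library left out in turn, 5 to 6, 3 to 4, 3 to 4, 1 to 2 and 0 to 2 loci passed, 0 to 1 and 0 to 2 in the differences of response of PS and AS from control, and 1 to 2, 2 to 5, 1 to 6 and 0 to 1 neighbours in the first 4 comparisons. No call on a locus or nearest neighbour reversed in these fits. Low counts limit Gm42891 most, with 0 to 11 reads in each library.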
